A study of Mus musculus with 6 samples.

Results

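The mitochondrially encoded transcripts are the RNAs copied from the circular genome inside mitochondria. They were chosen by name, as every entry of the single-oocyte count table that starts with mt-, and numbered 37 of 54658 gene entries: 2 ribosomal RNAs (rRNAs), 13 messenger RNAs (mRNAs) and 22 transfer RNAs (tRNAs). The oocytes were mouse oocytes at metaphase II (MII), the arrested stage that precedes fertilisation, and no treatment was recorded for them. The aged oocytes (1 sample of 59) were divided by the share of gene counts that was mitochondrial, into 21 above 5% and 38 at most 5%, and compared with the young oocytes (1 sample of 35). Strain, age in months and number of animals were not given in the labels used here. The 4 pools of 10 oocytes treated with short interfering RNA held 0 of these genes and entered no comparison.

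Mammalian mitochondrial DNA has a heavy and a light strand, each copied into a long precursor. The tRNAs sit between the rRNAs and mRNAs, and the precursor is cut at the tRNAs to free the RNAs on either side. Most mitochondrial mRNAs and the rRNAs then receive a short tail of A bases, which is what lets a method that primes on poly(A), such as Smart-seq2, capture them; mature tRNAs carry a CCA end and no such tail. An oocyte holds more copies of mitochondrial DNA than most cells, passes them to the embryo, and depends on the proteins they encode for its respiration.

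Each age was 1 sample and oocytes of a sample are not replicates of an age, so differences between ages are described without p-values. Values are CPM, a gene's counts per 1000000 gene counts without the spike-in, summed over the oocytes of a group unless the lowest, median and highest oocyte are given. Intervals at 95% confidence, exact Poisson for CPM and exact binomial for shares, cover counting error only, which PCR copies of 1 molecule make too narrow. A log2 ratio has 1 CPM added to both groups and was counted as 2-fold at 1 or more, among genes whose mean of the 2 groups' CPM reached 5.

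The libraries fell into 2 kinds, seen in the tRNA counts described below and chosen after their values were seen. A count for mt-Tq was present in 39 libraries (16 aged above 5%, 0 aged at most 5% and 23 young) and absent from 55 (5 aged above 5%, 38 aged at most 5% and 12 young). No label names this division, so it is not called a batch here. Because all 38 aged oocytes at most 5% lacked mt-Tq, most of their values are also set against the 12 young libraries that lacked it. Lacking mt-Tq does not make libraries alike in other ways: the mast cell genes Tpsb2 and Mcpt4, named after their values were seen, had counts in all 12 of these young libraries, in 1 of the 5 aged oocytes above 5% (aged 18) and in 0 of the 38 aged oocytes at most 5%. No pair of libraries was identical. Gene counts per oocyte were 2018226 to 8648061 in aged oocytes above 5%, 3399781 to 9502184 in aged oocytes at most 5% and 5480050 to 11894782 in young oocytes. A list of 12 oocyte marker genes summed to 825 to 5142 CPM in aged oocytes above 5%, against 18404 to 29085 CPM in aged oocytes at most 5% and 18468 to 28426 CPM in young oocytes. Aged oocytes above 5% also had fewer genes with a count, at 7385 to 13849 against 14724 to 17623 in aged oocytes at most 5% and 14140 to 17575 in young oocytes. Of 15 cumulus and granulosa markers, 9 had a count in aged oocytes above 5%, 12 in aged oocytes at most 5% and 11 in young oocytes. Their summed levels were 0 to 30.9 CPM in aged oocytes above 5%, 26.3 to 90.04 CPM in aged oocytes at most 5% and 48.6 to 107 CPM in young oocytes. The 7 blood and immune markers summed to 0 to 182, 3.82 to 19.0 and 4.74 to 21.2 CPM in these groups, and the 7 stroma and endothelium markers to 0 to 45.5, 75.1 to 178 and 102 to 234 CPM. Of the genes that define granulosa cells, Foxl2, Amh and Fshr were at 0 in aged oocytes above 5% and in young oocytes and had a count in aged oocytes at most 5%. Fst and Ptx3 of the same list went the other way, with a count in young oocytes and 0 in aged oocytes at most 5%. The list's summed medians were 70.0 CPM in aged oocytes at most 5% and 71.5 CPM in young oocytes. The part of these cell types, of depth and of library kind in the results below was not tested.

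The mitochondrial share was 6.78% to 61.6% in aged oocytes above 5% (median 32.8%), 0.947% to 2.97% in aged oocytes at most 5% (median 1.75%) and 0.688% to 1.92% in young oocytes (median 1.20%). The division therefore fell in a gap: the oocytes next above the threshold, aged 38 and aged 11, held 6.78% and 6.80%, and the highest below it, aged 35, held 2.97%. These shares chose the groups and are given as a description. Among aged oocytes at most 5%, where the rule sets only an upper bound, 34 of 38 lay above the young median and 9 of 38 above the highest young oocyte. Against the 12 young oocytes that also lacked mt-Tq (0.985% to 1.58%, median 1.19%), 24 of 38 lay above the highest. The ranges overlapped in both readings.

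**Figure D1:**
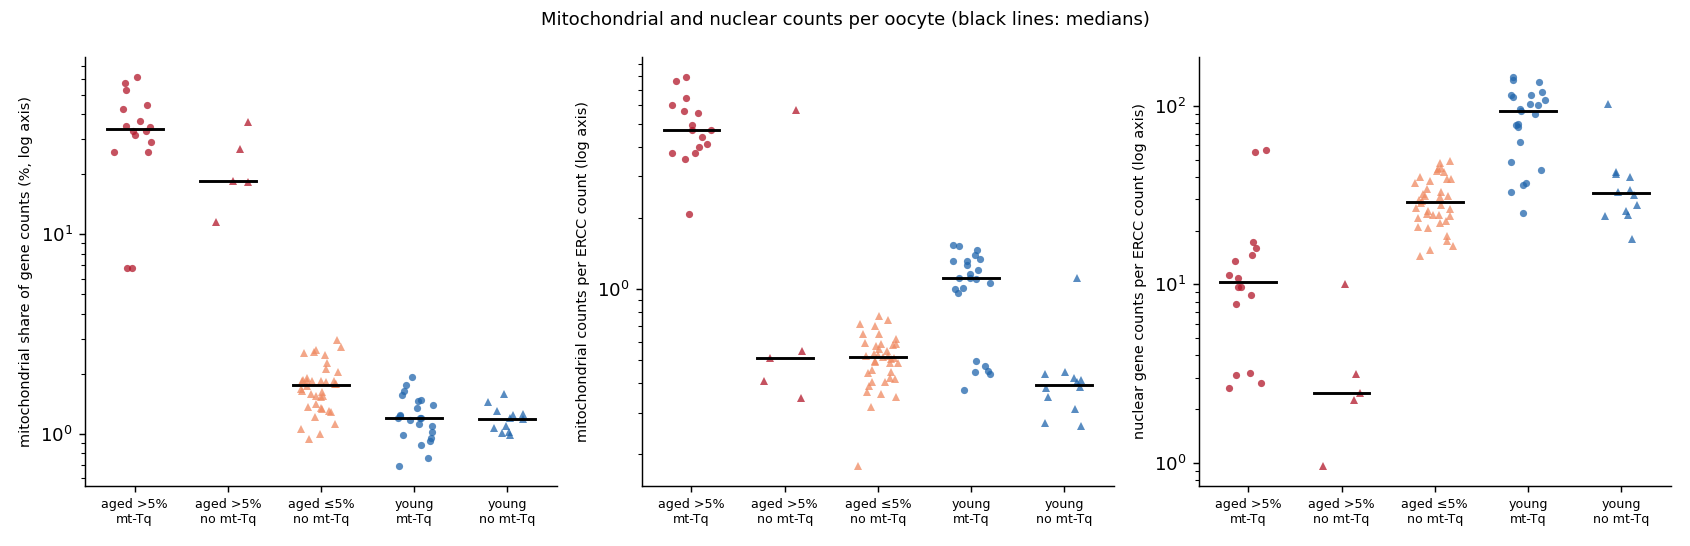
Each point is an oocyte, with circles for libraries with an mt-Tq count and triangles for those without, and black lines are medians. The panels show, on log axes, the mitochondrial share of gene counts (%), mitochondrial counts per ERCC spike-in count, and nuclear gene counts per ERCC count. Aged oocytes above 5% without mt-Tq have high shares (median 18.5%) but, in 4 of 5 cases, mitochondrial counts per ERCC count within the range of aged oocytes at most 5%.

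The ERCC spike-in, a set of synthetic RNAs added to each lysate, gives a scale that does not depend on the oocyte's own RNA, if the same amount was added to every oocyte. Mitochondrial counts per ERCC count were 0.346 to 7.93 in aged oocytes above 5% (median 4.41), 0.178 to 0.768 in aged oocytes at most 5% (median 0.515) and 0.264 to 1.53 in young oocytes (median 0.966). Nuclear gene counts per ERCC count were 0.954 to 56.4 in aged oocytes above 5% (median 9.70), 14.4 to 49.0 in aged oocytes at most 5% (median 28.9) and 18.01 to 146 in young oocytes (median 62.6). Yields differed among young oocytes, and in part along the library kind. Nuclear counts per ERCC count were 62.6 to 146 in 17 of the 23 young oocytes with mt-Tq and 25.003 to 48.3 in the other 6, against 18.01 to 42.7 in 11 of the 12 without mt-Tq and 103 in young 19. The spike-in values below are therefore also given within each kind.

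Among libraries with mt-Tq, all 16 aged oocytes above 5% had more mitochondrial counts per ERCC count than the highest young oocyte: 2.09 to 7.93 (median 4.72) against 0.376 to 1.53 (median 1.11), a log2 ratio of medians of 2.09. Nuclear counts per ERCC count were lower in the same aged oocytes, at a median of 10.3 against 94.1 in young oocytes (log2 -3.19). Hence both terms of the share differed in these libraries. The 2 oocytes near 6.8%, aged 11 and aged 38, had mitochondrial counts per ERCC count of 4.12 and 3.98, like the rest of their group, but nuclear counts per ERCC count of 56.4 and 54.8, within the young range. Across the 16 oocytes, the share went with nuclear counts per ERCC count (Pearson r -0.85, Spearman -0.86) and not with mitochondrial counts per ERCC count (r -0.07, Spearman -0.09). This is a description, since the quantities share the same counts.

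Among libraries without mt-Tq, the 5 aged oocytes above 5% had mitochondrial counts per ERCC count of 0.346 to 5.74 (median 0.509), the 38 aged oocytes at most 5% of 0.178 to 0.768 (median 0.515) and the 12 young oocytes of 0.264 to 1.11 (median 0.395). Of the 5, only aged 18, at 5.74, stood above the young range, and it was the highest of all 55. Nuclear counts per ERCC count were 0.954 to 9.98 in the 5 (median 2.46), against 14.4 to 49.0 in aged oocytes at most 5% (median 28.9) and 18.01 to 103 in young oocytes (median 32.4). All 5 lay below the lowest oocyte of both other groups. Their ERCC counts were 241320 in aged 18 and 989266 to 1553073 in the other 4, above the 117428 to 431162 of aged oocytes at most 5%. In those 4, the share was high while mitochondrial counts per ERCC count, at 0.346 to 0.546, lay within the range of aged oocytes at most 5%.

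For aged oocytes at most 5%, the direction on the spike-in scale depended on the library kind. Their median of mitochondrial counts per ERCC count was lower than that of the 35 young oocytes (log2 ratio of medians -0.91), with 1 of 38 below the lowest. It was higher than the median of the 12 young oocytes without mt-Tq (log2 0.38). The ranges overlapped in both readings. In both readings the rRNAs and mRNAs parted. Over all libraries, the log2 ratio of medians was -0.33 for mitochondrial rRNA counts and -1.11 for mitochondrial mRNA counts per ERCC count. Without mt-Tq, mitochondrial rRNA counts per ERCC count had medians of 0.227 in aged oocytes at most 5% and 0.119 in young oocytes (log2 0.94). Mitochondrial mRNA counts per ERCC count had medians of 0.281 and 0.265 in the same oocytes (log2 0.09).

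The rRNAs, which form the small (mt-Rnr1, 12S) and large (mt-Rnr2, 16S) subunits of the mitochondrial ribosome, were the members that set aged oocytes at most 5% apart from young oocytes. They lie next to each other at chrM:70-1024 and chrM:1094-2675 on the + strand (mm10), with a tRNA between them. mt-Rnr2 was at 25540.3 to 323433 CPM in aged oocytes above 5% (median 106707), 4025 to 11274 CPM in aged oocytes at most 5% (median 6433) and 2272 to 5436 CPM in young oocytes (median 3119). mt-Rnr1 was at 3682 to 70108 CPM in aged oocytes above 5% (median 22675), 293 to 3607 CPM in aged oocytes at most 5% (median 1007) and 210.1 to 1042 CPM in young oocytes (median 415). For both genes the ranges of aged oocytes at most 5% and of young oocytes overlapped, with the aged medians above. Summed, mt-Rnr2 reached 6648 CPM in aged oocytes at most 5% (95% interval 6638 to 6658) and 3227 CPM in young oocytes (3220.3 to 3233), a log2 ratio of 1.04. mt-Rnr1 reached 1189 CPM in aged oocytes at most 5% (1185 to 1194) and 452 CPM in young oocytes (449.7 to 455), a log2 ratio of 1.39. Against young libraries without mt-Tq the ratios were 1.12 and 1.48.

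These were the only members at least 2-fold higher in aged oocytes at most 5% than in young oocytes, 2 of the 14 with at least 5 CPM, and 0 were 2-fold lower. Over all genes tested, 1.63% were at least 2-fold higher, and 1.56% when only libraries without mt-Tq were used. The median log2 ratio was 0.37 over the 14 members and 0.08 over all genes tested, and 0.36 and 0.08 without mt-Tq. With the ERCC counts as the scale, the direction of most members flipped over all libraries. Of 14, 0 were 2-fold higher, beside 0.0594% of all genes tested, and 2 were above 0, beside 4.27%: mt-Rnr1 at 0.56 and mt-Rnr2 at 0.21. The median was -0.71 for all genes and -0.46 for the members. Without mt-Tq the median was -0.11 for all genes and 0.16 for the members. There 1 of 14 was 2-fold higher, beside 0.619% of all genes tested, and 11 of 14 were above 0, beside 36.9%. mt-Rnr1 stood at 1.28 and mt-Rnr2 at 0.92.

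Within the mitochondrial total, the rRNA share was 45.7% in aged oocytes above 5%, 45.2% in aged oocytes at most 5% and 30.9% in young oocytes. Since the oocytes were divided by the size of the total and not by its makeup, this share was not used to form the groups. Per oocyte it was 28.2% to 67.0% in aged oocytes above 5% (median 44.3%), 25.2% to 54.5% in aged oocytes at most 5% (median 46.0%) and 19.7% to 42.8% in young oocytes (median 30.2%). Of the aged oocytes, 13 of 21 above 5% and 30 of 38 at most 5% exceeded the highest young oocyte. Summed, the share was higher in aged than in young oocytes inside each library kind too. It was 45.9% in aged oocytes above 5% against 31.5% in young oocytes with mt-Tq. Without mt-Tq it was 43.9% and 45.2% in aged oocytes above and at most 5% against 29.7% in young oocytes. In the libraries without mt-Tq, 4 of 5 and 36 of 38 aged oocytes exceeded the highest young oocyte, at 36.8%. Separation was weaker with mt-Tq, where 9 of 16 aged oocytes exceeded the highest young oocyte and 14 of 16 the young median. In sums and medians, the rRNA share thus differed from that of young oocytes by similar amounts in both groups of aged oocytes, although their mitochondrial shares differed widely. Per oocyte the ranges overlapped.

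Across oocytes of a group, the rRNA share was only weakly related to the mitochondrial share in aged oocytes above 5% (Pearson r 0.15, Spearman 0.15, n = 21 oocytes) or at most 5% (r -0.00, Spearman 0.16, n = 38 oocytes). In aged oocytes above 5%, Spearman was 0.30 with mt-Tq (n = 16 oocytes). In young oocytes the relation was negative over all libraries (r -0.46, Spearman -0.49, n = 35 oocytes), with mt-Tq (r -0.48, n = 23 oocytes) and without (r -0.45, n = 12 oocytes). Between the rRNA share and gene counts, a measure of depth, r was 0.47 in young oocytes with mt-Tq and 0.19 without, and -0.17 in aged oocytes at most 5%. The ratio of mt-Rnr2 to mt-Rnr1 counts had medians of 5.19 in aged oocytes above 5%, 6.27 in aged oocytes at most 5% and 7.39 in young oocytes, with ranges that overlapped.

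**Figure D2:**
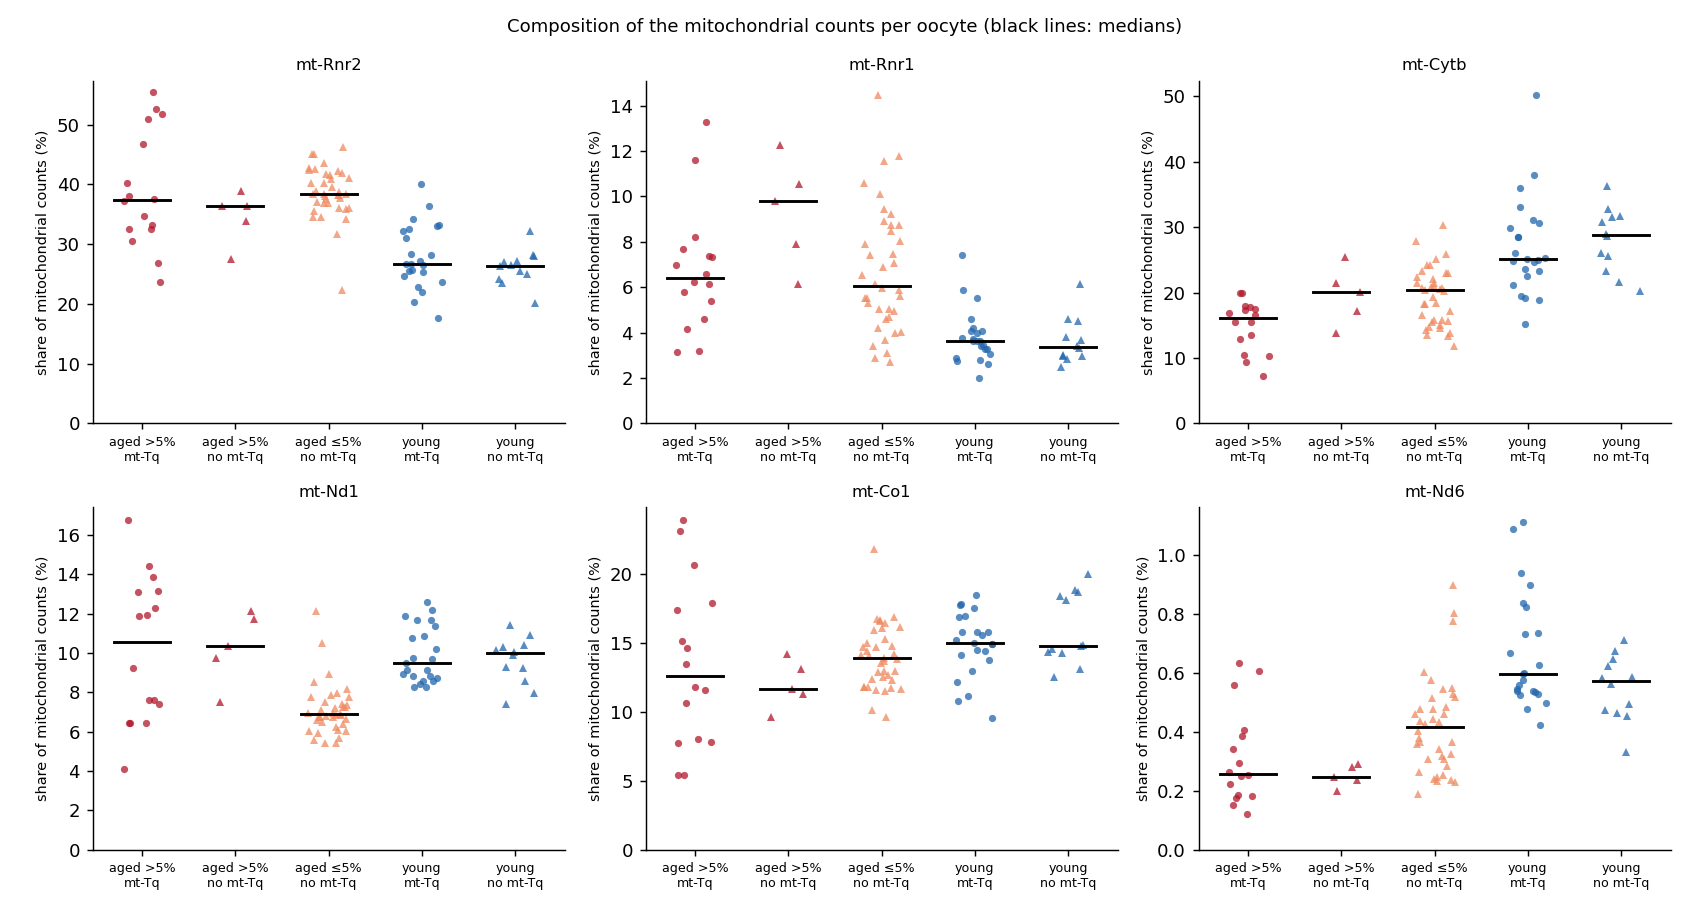
Each panel plots 1 gene's share of the mitochondrial counts (%) per oocyte, by group and library kind, with black lines at the medians. By their medians, mt-Rnr2 and mt-Rnr1 stand higher in both aged groups than in young oocytes, and mt-Cytb and mt-Nd6 lower. mt-Nd1 has a lower median in aged oocytes at most 5% (6.89%) than above 5% (10.3%), where oocytes range from 4.11% to 16.8%.

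mt-Cytb, the cytochrome b of complex III and the complex's only subunit made in the mitochondrion, had the largest loss of share in percentage points among the members. It held 15.2% of mitochondrial counts in aged oocytes above 5%, 19.5% in aged oocytes at most 5% and 27.4% in young oocytes. Per oocyte the share was 7.24% to 25.4% (median 16.9%) in aged oocytes above 5%, 11.8% to 30.4% (median 20.3%) in aged oocytes at most 5% and 15.2% to 50.2% (median 26.0%) in young oocytes, the highest belonging to young 6. All 21 aged oocytes above 5% and 36 of 38 at most 5% lay below the young median. Without mt-Tq, the share was 18.1% in aged oocytes above 5%, 19.5% in aged oocytes at most 5% and 28.2% in young oocytes. In CPM, however, mt-Cytb was alike in aged oocytes at most 5% and in young oocytes, at 1728 to 7707 (median 3121) in the aged oocytes against 1473 to 9635 (median 3034) in the young, with a log2 ratio of 0.06 over all libraries and 0.03 without mt-Tq. Its lower share there thus went with higher counts of other members, and its own level relative to all genes differed little.

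Complex I, the NADH dehydrogenase that feeds electrons into the chain, takes 7 of the 13 mRNAs (mt-Nd1 to mt-Nd6 and mt-Nd4l) and held 25.4% of mitochondrial counts in aged oocytes above 5%, 21.1% in aged oocytes at most 5% and 26.2% in young oocytes. mt-Nd1, a membrane-arm subunit near the quinone site whose gene follows mt-Rnr2 on the same precursor, was at 513 to 3603 CPM in aged oocytes at most 5% (median 1187) and 579 to 1829 CPM in young oocytes (median 1209). Its log2 ratio was 0.08, and 0.13 without mt-Tq, so it did not share the difference of the rRNA beside it. As a share it was 10.4% in aged oocytes above 5%, 7.21% in aged oocytes at most 5% and 9.92% in young oocytes, so the aged groups differed in the summed share. Among libraries without mt-Tq, all 5 aged oocytes above 5% lay above the median of the aged oocytes at most 5%, with 7.50% to 12.1% (median 10.3%) above 5% against 5.42% to 12.1% (median 6.89%) at most 5%. With mt-Tq, aged oocytes above 5% ran from 4.11% (aged 12) to 16.8% (aged 8). Of these, aged 3, aged 12, aged 38 and aged 40 lay below 6.89%.

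mt-Nd6 is the only mRNA gene on the - strand, at chrM:13552-14070, and encodes a membrane-arm subunit of complex I. Its share was 0.123% to 0.631% in aged oocytes above 5% (median 0.252%), 0.190% to 0.897% in aged oocytes at most 5% (median 0.415%) and 0.331% to 1.11% in young oocytes (median 0.582%). Among libraries without mt-Tq, the 5 aged oocytes above 5% (0.200% to 0.291%) did not overlap the 12 young oocytes (0.331% to 0.710%). This was not particular to mt-Nd6: the mt-Rnr1 shares of the same oocytes did not overlap either, at 6.15% in the lowest aged and 6.14% in the highest young oocyte. With mt-Tq the mt-Nd6 shares did overlap, reaching 0.631% in aged oocytes above 5% and starting at 0.421% in young oocytes. In CPM, mt-Nd6 was at 17.9 to 245 in aged oocytes at most 5% (median 68.6) and 33.7 to 157 in young oocytes (median 67.3), with a log2 ratio of -0.03, and 0.21 without mt-Tq. It overlaps mt-Nd5 by 14 bases on opposite strands, and since the strand setting of the counting was not given in the sources used here, reads of the 2 strands cannot be told apart where antisense precursors cover each other's genes.

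The other complex I mRNAs moved within a narrow band. Between aged oocytes at most 5% and young oocytes, the log2 ratio was 0.24 for mt-Nd2, 0.32 for mt-Nd3, 0.43 for mt-Nd4 and 0.31 for mt-Nd5, and 0.22, 0.66, 0.36 and 0.41 in the same order without mt-Tq. As shares, mt-Nd2 took 4.004% in aged oocytes above 5%, 3.84% in aged oocytes at most 5% and 4.76% in young oocytes, mt-Nd4 took 4.89%, 3.95% and 4.28% in these groups, and mt-Nd5 took 5.37%, 5.29% and 6.22%. Without mt-Tq these shares in aged oocytes at most 5% and young oocytes were 3.84% and 4.84% for mt-Nd2, 3.95% and 4.53% for mt-Nd4, and 5.29% and 5.86% for mt-Nd5. mt-Nd4l, whose mRNA also carries mt-Nd4 and overlaps it by 7 bases, had 5.42, 0.323 and 0.214 CPM in the same groups and is uncertain for a reason given below.

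Complex IV, the cytochrome c oxidase that passes electrons to oxygen, was read almost wholly through mt-Co1, its catalytic subunit. mt-Co1 took 13.4% of mitochondrial counts in aged oocytes above 5%, 13.9% in aged oocytes at most 5% and 15.2% in young oocytes. In CPM it was at 3647 to 72748 in aged oocytes above 5% (median 51489), 1180.3 to 6465 in aged oocytes at most 5% (median 2377) and 918 to 2500.2 in young oocytes (median 1836), and the log2 ratio of aged oocytes at most 5% over young oocytes was 0.42, or 0.35 without mt-Tq. Within aged oocytes above 5% its share ranged from 5.38% to 23.9%, wider than in the other groups. mt-Co2, which takes electrons from cytochrome c, and mt-Co3 reached 219.6 and 233 CPM in aged oocytes above 5%, 11.2 and 7.94 CPM in aged oocytes at most 5% and 6.49 and 5.51 CPM in young oocytes. For mt-Co3 the log2 ratio of aged oocytes at most 5% over young oocytes was 0.46, and 0.27 without mt-Tq.

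Complex V, the ATP synthase, has mt-Atp6, part of the proton channel, and mt-Atp8, which share a single mRNA and overlap by 43 bases. mt-Atp6 was at 156 CPM in aged oocytes above 5%, 10.8 CPM in aged oocytes at most 5% and 9.05 CPM in young oocytes. Its log2 ratio of aged oocytes at most 5% over young oocytes was 0.23 over all libraries and -0.06 without mt-Tq, so no direction is given. mt-Atp8 had few counts, 197 over the 21 aged oocytes above 5%, 123 over the 38 aged oocytes at most 5% and 31 over the 35 young oocytes. It had a count in 20 of 21 aged oocytes above 5%, 36 of 38 at most 5% and 20 of 35 young oocytes. Its level was 2.05 CPM in aged oocytes above 5% (95% interval 1.77 to 2.35), 0.472 CPM in aged oocytes at most 5% (0.393 to 0.564) and 0.102 CPM in young oocytes (0.0694 to 0.145), and its ratio without the added 1 CPM was 4.62 for aged oocytes at most 5% over young oocytes, or 5.14 without mt-Tq. That is larger than the same ratio for mt-Rnr1, 2.63, but mt-Atp8 is under the 5 CPM limit, and an oocyte held 0 to 9 counts of it in aged oocytes at most 5%.

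**Figure D3:**
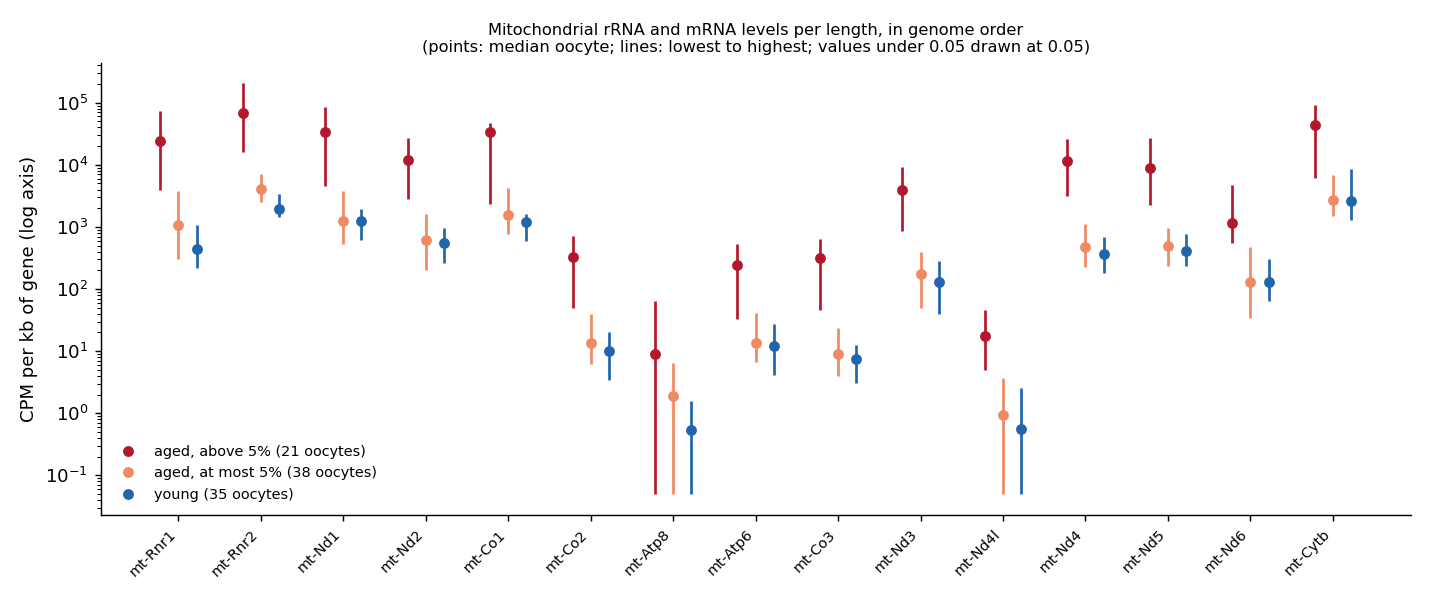
Points are the median oocyte and lines run from the lowest to the highest oocyte, in CPM per kb of gene on a log axis, for the 15 rRNA and mRNA genes in their order on the mitochondrial genome. In young oocytes mt-Cytb and mt-Rnr2 lead, mt-Rnr2 leads in both aged groups, and mt-Co2, mt-Atp8, mt-Atp6, mt-Co3 and mt-Nd4l are low in every group.

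In aged oocytes above 5%, 14 of 14 members with at least 5 CPM were at least 2-fold higher than in young oocytes, beside 10.5% of all genes tested. It was 14 of 14 with mt-Tq, beside 10.8%, and 14 of 14 without, beside 11.2%. The division used the mitochondrial share, so this count follows from it, and only the spread among members is of interest. The log2 ratios ran from 3.46 (mt-Nd6) and 3.81 (mt-Cytb) through 4.40 (mt-Nd2), 4.44 (mt-Nd5), 4.48 (mt-Co1), 4.72 (mt-Nd1) and 4.84 (mt-Nd4) to 5.16 (mt-Rnr2) and 5.58 (mt-Rnr1). mt-Rnr1 was therefore 47.8-fold and mt-Nd6 11.1-fold as high as in young oocytes. Not listed in this order, mt-Co2 and mt-Co3 stood at 4.88 and 5.17 but are uncertain for a reason given below. The members' median was 4.72 and that of all genes tested -0.85. The latter was -0.38 when scaled to nuclear genes and -2.88 when scaled to ERCC counts. Under both, 14 of 14 members stayed at least 2-fold higher, beside 18.8% and 0.534% of all genes tested. Without mt-Tq and scaled to ERCC counts, where the median of all genes was -3.43, 6 of 14 were at least 2-fold higher and 13 of 14 above 0, beside 0.255% and 0.535% of all genes tested. This rested on aged 18: with it left out, 1 of 14 was at least 2-fold higher and 7 of 14 above 0, and summed mitochondrial counts per ERCC count were 0.439 in the other 4 aged oocytes and 0.703 in all 5, against 0.385 in young oocytes.

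Against aged oocytes at most 5%, where 8.06% of all genes tested were at least 2-fold higher in aged oocytes above 5%, the order of members differed. The highest was mt-Co3 at 4.71 on the log2 scale, uncertain for a reason given below. mt-Nd1 stood at 4.63, mt-Nd4 at 4.42 and mt-Nd3 at 4.39. mt-Rnr1 stood at 4.18 and mt-Rnr2 at 4.12, mt-Cytb at 3.75 and mt-Nd6 at 3.49. The rRNAs, among the highest in the ratio over young oocytes, lay in the middle here. Without mt-Tq, where 9.06% of all genes tested were at least 2-fold higher, mt-Nd1 stood at 4.25, mt-Rnr1 at 4.06, mt-Rnr2 at 3.55 and mt-Nd6 at 2.92.

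Compared per length, as CPM per kb of gene over summed counts, the 15 rRNA and mRNA genes spanned several orders of magnitude within each group. mt-Rnr2 ranked first of 37 in aged oocytes above 5%, at 72849 CPM per kb, followed by mt-Cytb at 39854, mt-Nd1 at 32472, mt-Co1 at 25968 and mt-Rnr1 at 22651. In aged oocytes at most 5%, mt-Rnr2 was also first at 4202 CPM per kb, with mt-Cytb at 2963, mt-Co1 at 1563, mt-Nd1 at 1306 and mt-Rnr1 at 1245. In young oocytes mt-Cytb was first at 2847 CPM per kb and mt-Rnr2 second at 2039.6, then mt-Nd1 at 1233, mt-Co1 at 1166 and mt-Nd2 at 545, with mt-Rnr1 sixth at 473. The per-oocyte ranges of neighbours in these orders overlapped. mt-Nd3 followed at 3802, 178 and 142 CPM per kb in aged oocytes above 5%, aged oocytes at most 5% and young oocytes, and mt-Co2 at 321, 16.3 and 9.49.

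Most of the mRNAs with few counts share sequence with the nuclear genome. On chromosome 1, at chr1:24611535-24616197 (mm10), GENCODE M21 lists 7 unprocessed pseudogenes, copies of mitochondrial DNA in the nucleus, within 4663 bases. In order these are Gm28439 (a copy of mt-Nd4), Gm10222 (mt-Nd4l), Gm28438 (mt-Nd3), Gm28437 (mt-Co3), Gm10925 (mt-Atp6), Gm28661 (mt-Co2) and Gm29216 (mt-Co1). Over the bases compared, 5 of the 7 matched the mitochondrial gene at every base. The copy of mt-Nd3 differed at 1 of 345 bases, T3C, counted from 1 at the first base of mt-Nd3 with the mitochondrial base first. The copy of mt-Co1 covered 492 bases of the gene and differed at 6. Between the copies of mt-Atp6 and mt-Co2 lie 233 bases with no listed gene, where mt-Atp8 would be. The starts of mt-Nd3 (chrM:9459-9806, + strand) and its copy (chr1:24612775-24613119, - strand) are shown for how alike they are, with the base that differs in capitals:
mt-Nd3: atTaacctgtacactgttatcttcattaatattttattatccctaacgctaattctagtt
Gm28438: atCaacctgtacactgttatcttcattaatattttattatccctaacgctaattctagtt
The first 60 bases of each are shown, and the remaining compared bases were the same.

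The share of a gene's 50-base words that also occur in nuclear transcripts was 100% for mt-Co2, 99.9% for mt-Co3, 99.5% for mt-Atp6, 98.8% for mt-Nd4l and 98.0% for mt-Nd3. It was 62.2% for mt-Nd4, 51.1% for mt-Co1, 8.19% for mt-Nd2, 7.61% for mt-Nd5, 1.04% for mt-Rnr2 and 0% for mt-Rnr1, mt-Nd1, mt-Nd6, mt-Cytb and mt-Atp8. How reads that fit several places were counted was not given in the sources used here. The nuclear copies themselves had counts, and for 4 genes more than the mitochondrial gene. Gm28661 had 118655 counts against 21135 for mt-Co2 in aged oocytes above 5%, 3893 against 2906 in aged oocytes at most 5% and 4910 against 1970 in young oocytes. Gm28437 exceeded mt-Co3, Gm10925 exceeded mt-Atp6 and Gm10222 exceeded mt-Nd4l in each group too. mt-Co1 held 99.5% to 99.8% and mt-Nd3 93.0% to 93.4% of the counts of gene and copy together.

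With the copy's counts added, the log2 ratio of aged oocytes at most 5% over young oocytes was 0.20 for mt-Co2 (0.70 alone), -0.02 for mt-Atp6 (0.23 alone) and 0.68 for mt-Co3 (0.46 alone). Without mt-Tq, it was 0.40 for mt-Co2 alone and -0.45 with its copy, so no direction is given for that gene. In aged oocytes above 5% over young oocytes, the ratio with the copy was 5.94 for mt-Co2, 6.15 for mt-Co3, 4.26 for mt-Atp6 and 5.36 for mt-Nd4l. With their copies, mt-Co2 and mt-Co3 thus exceeded mt-Rnr1, at 5.58. The values of mt-Co2, mt-Co3, mt-Atp6 and mt-Nd4l are therefore uncertain, and neither mt-Rnr1, mt-Nd1, mt-Nd6 nor mt-Cytb shares a 50-base word with a listed nuclear transcript. Nuclear DNA outside listed transcripts was not searched, so copies there would not be seen. This holds for the 233 bases where mt-Atp8 would be, and whether reads of mt-Atp8 also fit there was not tested.

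**Figure D4:**
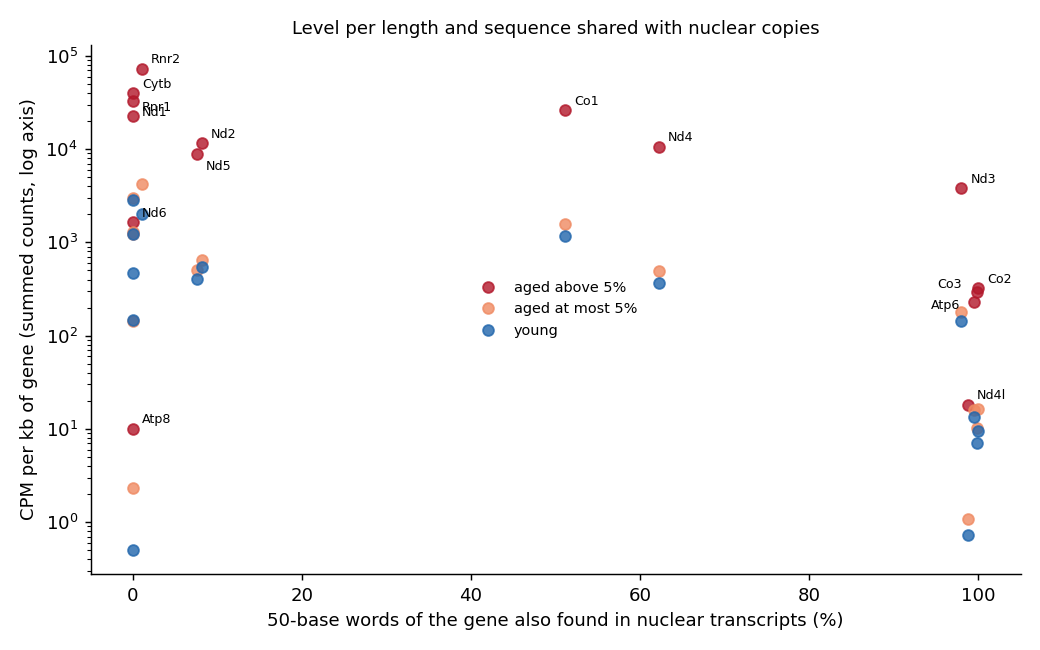
Each point is an rRNA or mRNA gene in 1 group, with the share of its 50-base words also found in nuclear transcripts (%) against its level in CPM per kb on a log axis. mt-Co2, mt-Co3, mt-Atp6 and mt-Nd4l, at 98.8% to 100% shared, lie at 18.3 to 321 CPM per kb in aged oocytes above 5%, mt-Nd3 at 98.0% lies at 3802, and mt-Atp8 is low with 0% shared.

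Of the 22 tRNA genes, 9 were at 0 in all 94 oocytes. mt-Tp, the proline tRNA, had a count in every oocyte and held most of the tRNA counts. It was at 34.3 to 906 CPM in aged oocytes above 5% (median 290.3), 5.11 to 24.2 CPM in aged oocytes at most 5% (median 14.5) and 4.28 to 26.3 CPM in young oocytes (median 9.16). The log2 ratio of aged oocytes at most 5% over young oocytes was 0.50, and 0.38 without mt-Tq. mt-Tp lies beside the control region at chrM:15356-15422 on the - strand, the first gene met by transcription that starts there toward lower positions. The other tRNAs had 776 counts in aged oocytes above 5%, 3 in aged oocytes at most 5% and 576 in young oocytes.

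mt-Tq, the glutamine tRNA at chrM:3772-3842 on the - strand, defines the 2 library kinds, so only the gap between 0 and 4 counts is an observation. It had 9 to 40 counts in the 16 aged oocytes above 5% that had any (324 in all) and 4 to 48 in the 23 young oocytes that had any (372 in all), and 0 in the other 5 aged oocytes above 5%, in all 38 aged oocytes at most 5% and in the other 12 young oocytes. For the 38 oocytes the limit that a count of 0 allows, 3 counts in their total, is 0.0115 CPM. The tRNA sequences, from the GENCODE M21 transcripts, are shown for the pair that carries these counts, with the anticodon in capitals:
mt-Tq: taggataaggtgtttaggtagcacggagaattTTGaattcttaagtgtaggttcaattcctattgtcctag
mt-Tp: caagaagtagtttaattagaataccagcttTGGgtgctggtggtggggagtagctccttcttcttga
mt-Tm, the methionine tRNA 2 bases past mt-Tq on the other strand, had 128 counts in aged oocytes above 5%, 0 in aged oocytes at most 5% and 39 in young oocytes, all in libraries with mt-Tq. In libraries with mt-Tq 12 of the 21 tRNAs besides mt-Tp had a count, and in young libraries without it 0 of 21. Tpsb2, a mast cell protease gene, had 6 to 15 counts in the 12 young libraries without mt-Tq and 0 in the 23 with it, but it was at 0 in 4 of the 5 aged oocytes above 5% and all 38 at most 5% that lacked mt-Tq, so it did not follow mt-Tq in aged oocytes. Differences in preparation, sequencing or counting between the kinds cannot be told apart with the labels used here.

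**Figure D5:**
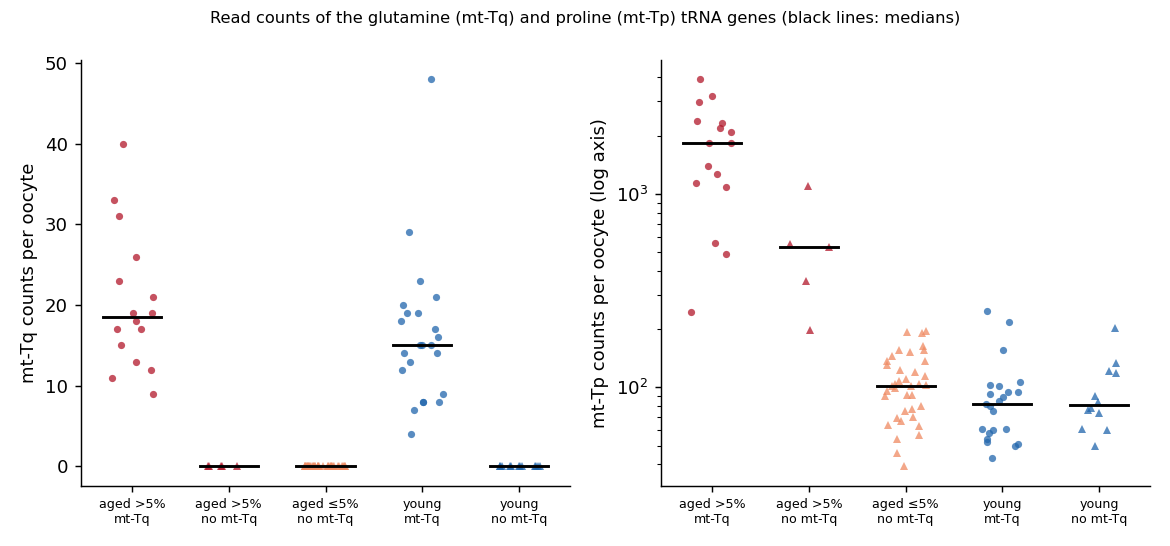
Read counts per oocyte of mt-Tq (linear axis) and mt-Tp (log axis), by group and library kind, with black lines at the medians. mt-Tq is at 4 to 48 counts or at 0, while mt-Tp has a count in every oocyte of both library kinds.

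Unlike most mRNAs, several mitochondrial mRNAs end in a bare T, and the tail of A bases completes their stop codon. The last bases of mt-Cytb (chrM:14145-15288) and mt-Co1 (chrM:5328-6872), the most abundant mRNAs of complexes III and IV, show both forms, with the bases of the stop codon that the genome holds in capitals:
mt-Cytb: gaagacaaaatactaaaattatatccaT
mt-Co1: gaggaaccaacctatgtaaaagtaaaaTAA
mt-Co3 and mt-Nd4 also end in a bare T. Tail length was not measured here, so levels in this poly(A)-primed method cannot be told apart from tail presence.

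The mitochondrial mRNAs encode only part of the respiratory chain, and most subunits come from the nucleus. Of 74 such nuclear subunits of complexes I, III, IV and V, 51 had at least 5 CPM in the comparison of aged oocytes at most 5% with young oocytes. Of these 8 were at least 2-fold higher and 0 were 2-fold lower, where 1.63% and 0.214% of all genes tested were, and 47 were above 0, with a median log2 ratio of 0.52. Of the 8, 7 reached 5 CPM in both groups. The largest ratio was that of Cox7c, a small subunit of complex IV, at 11.9 CPM in aged oocytes at most 5% against 3.17 CPM in young oocytes (log2 1.63); Cox7c passed the 5 CPM mean only through the aged oocytes. It was followed by Ndufb1-ps of complex I at 19.3 CPM in these aged oocytes against 6.21 CPM in young oocytes (1.49), Uqcr10 of complex III at 20.5 against 8.07 CPM (1.25) and Atp5e of complex V at 20.5 against 8.16 CPM (1.23). Without mt-Tq 6 of 51 were 2-fold higher, where 1.56% of all genes tested were, with a median of 0.46. With ERCC counts as the scale, 0 of 51 were 2-fold higher over all libraries, where 0.0594% of all genes tested were. Without mt-Tq 2 of 51 were, where 0.619% of all genes tested were. On that scale 16 of 51 were above 0 over all libraries (median -0.23), where 4.27% of all genes tested were. Without mt-Tq 37 of 51 were above 0 (median 0.29), where 36.9% of all genes tested were. The sign of their median thus turned with ERCC scaling over all libraries and not without mt-Tq. Of the 3 measured members of complex II, which has no mitochondrially encoded subunit, Sdhd was at 47.6 CPM in aged oocytes at most 5% and 20.3 CPM in young oocytes (1.19), and Sdhc and Sdha stood at 0.29 and -0.43.

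The genes that make and handle mitochondrial RNA held few calls between these groups, where 1.63% of all genes tested were at least 2-fold higher. Of 7 measured genes of mitochondrial transcription, 1 was at least 2-fold higher in aged oocytes at most 5%: Tfam, which packages mitochondrial DNA and starts its transcription, at 7.23 CPM against 2.97 CPM in young oocytes (log2 1.05), which passed the 5 CPM mean only through the aged oocytes. Of 19 genes of RNA processing and decay, 1 was, Lrpprc, which stabilises mitochondrial mRNAs, at 21.3 CPM against 10.03 CPM in young oocytes (1.01). Of 9 genes of mitochondrial DNA replication and upkeep 1 was, again Tfam, and of 11 translation factors 0 were. None of these lists held a member 2-fold higher without mt-Tq or with ERCC counts as the scale, and their medians in CPM lay between -0.10 and 0.14 over all libraries. On the ERCC scale over all libraries their medians lay between -0.87 and -0.65, beside -0.71 for all genes tested. There 4 of 19 processing, 2 of 11 translation, 1 of 9 replication and 0 of 7 transcription genes were 2-fold lower, beside 18.4% of all genes tested.

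In aged oocytes above 5%, these nuclear genes went the other way from the mitochondrial ones. Of 32 measured subunits, 0 were at least 2-fold higher and 24 at least 2-fold lower than in young oocytes, beside 46.8% of all genes tested, with a median log2 ratio of -1.68. Uqcrc2, a core subunit of complex III, was at 17.1 CPM in aged oocytes above 5% against 322 CPM in young oocytes (log2 -4.16). The complex I subunit Ndufs4 was at 0.447 CPM in these aged oocytes against 18.4 CPM in young oocytes (-3.75), Ndufa4 of complex IV at 8.41 against 117 CPM (-3.65) and Ndufa1 of complex I at 1.56 against 22.4 CPM (-3.20). The count was 23 of 33 without mt-Tq, beside 44.4% of all genes tested, 19 of 32 with CPM of nuclear genes, beside 36.4%, and 32 of 32 with ERCC counts as the scale, beside 92.9%. Of the 24, 11 reached 5 CPM in both groups, and the other 13 passed only through the young oocytes. Translation factors had 6 of 8 at least 2-fold lower and 0 higher, with Gfm1 at -3.97, Tsfm at -2.99, Mtrf1 at -1.73 and Mtfmt at -1.41. Of these 6, 4 reached 5 CPM in both groups. Without mt-Tq 4 of 9 translation factors were at least 2-fold lower, beside 44.4% of all genes tested.

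Transcription, processing and replication genes were mixed in aged oocytes above 5%, where 46.8% of all genes tested were at least 2-fold lower. The median log2 ratio was -1.44 for transcription, -1.18 for processing and -1.09 for replication genes, beside -0.85 for all genes tested. Tfam was at 15.7 CPM against 2.97 CPM in young oocytes (log2 2.07) and passed the 5 CPM mean only through the aged oocytes. The transcription list had 4 of 6 lower, Mterf1b (-3.54), Mterf3 (-2.18), Mterf4 (-1.57) and Tfb1m (-1.31), of which 1 reached 5 CPM in both groups. Of the processing genes 10 of 19 were lower, led by Trmt10c, part of the enzyme that cuts tRNA 5′ ends (-4.42), Rpusd4 (-2.50), Pnpt1 (-2.24) and Supv3l1 (-1.56), and 1 was higher, Fastkd1 (1.32). Of these 10, 7 reached 5 CPM in both groups. Of the replication genes 4 of 8 were lower, Dguok (-4.60), Lig3 (-4.08), Rnaseh1 (-3.39) and Atad3a (-1.50), and 3 of these 4 reached 5 CPM in both groups. Tk2, which with Dguok supplies mitochondrial DNA building blocks, stood at 1.23. With ERCC counts as the scale, 0 of the genes in these 3 lists were 2-fold higher, beside 0.534% of all genes tested. On that scale Fastkd1 and Tk2 lay below 0 over all libraries (-1.11 and -1.01) and in each library kind, and Tfam stood at -0.04 over all libraries, 0.35 with mt-Tq and -1.01 without.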

How the data were processed

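The authors deposited whole-number read counts per gene, 1 column per oocyte, without normalization. STAR 2.7.10b, HTSeq 0.13.5 and build mm10 are named per the submitters' processing notes, with no roles. The sources used here do not state the annotation, strand setting, multi-mapping rule or read length. Poly(A) RNA was amplified by Smart-seq2, per the labels' protocols, with no molecular identifiers named.

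CPM is a group's summed count of a gene over its summed gene counts, with the 92 ERCC entries left out. Python 3.11.15, pandas 2.3.3, numpy 2.4.6 and scipy 1.17.1 were used. Positions, lengths and sequences came from GENCODE M21 (mm10), which held all 37 genes, and genes were compared with nuclear transcripts by shared words of 50 and 100 bases. The ratio was tested on simulated data. All rRNA and mRNA genes, tRNA genes with at least 1 CPM in a group, and up to 4 nuclear genes per list and direction at least 2-fold apart are named. The members and gene lists were chosen with earlier results of these data known. The table header ends in 1 unnamed column without values.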

Additional observations from a re-analysis of the deposited data

How the results depend on the processing

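No paired analysis was possible because each age was 1 sample, the result comes from no test and oocyte numbers pair nothing. Of 47 recomputed values, 24 kept within the limits set, 22 moved and 1 reversed. The count of members at least 2-fold higher in aged oocytes at most 5% over young oocytes was 0 with scaling to ERCC counts over all libraries. On that scale without mt-Tq it was 1. It was 2 under every other setting run, among them a pseudocount of 0.1 CPM, the median oocyte, no filter and a division at 10%. Chosen after seeing the data, libraries without mt-Tq in CPM and the nuclear copy's counts added also gave 2. In aged oocytes above 5% it was 14 to 17, except without mt-Tq on the ERCC scale, where it was 6, and 1 with aged 18 left out. The rRNA share of mitochondrial counts was higher in both aged groups than in young oocytes under every setting run, but the order of the aged groups turned under several. In aged oocytes above 5% it was 44.3% as the median oocyte, 44.5% in oocytes with at least 4000000 gene counts, 45.7% without tRNA genes, 45.5% with the division at 10%, and 45.9% with and 43.9% without mt-Tq (43.7% with aged 18 left out). In aged oocytes at most 5% it was 46.0%, 45.03% and, at 10%, 46.1% in the same order of settings. In young oocytes it was 30.2% as the median oocyte, and 31.5% with and 29.7% without mt-Tq. The log2 ratio of mitochondrial counts per ERCC count for aged oocytes above 5% over young oocytes was 2.19 over all libraries, 2.28 at 10%, 2.09 with and 0.37 without mt-Tq (0.21 with aged 18 left out). For aged oocytes at most 5% it was -0.91 over all libraries, -0.29 for summed counts, -0.90 at 10%, and 0.38, the reversed direction, without mt-Tq. The cause was not tested. All oocytes passed 1000 ERCC counts.

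Depth limits mt-Atp8, mt-Nd4l and the tRNAs other than mt-Tp, which had few counts per oocyte.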
